A study of Rattus norvegicus with 23 samples.

Results

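The α1ACT line of rat PC12 cells was compared at the ends of its culture span, at 10 d and at 6 h after the cells had been split. PC12 is a pheochromocytoma line, derived from chromaffin-type cells of the adrenal medulla, and serves as a culture model for neuroendocrine secretion and neuron-like growth. The comparison took the libraries whose titles carry α1ACT and these times, 3 at 6 h and 3 at 10 d, so 6 of the 23 small RNA libraries of the series. All cells were grown in F-12K medium on poly-L-lysine, with serum from horse (10%) and from fetal calves (2.5%). The α1ACT line had been transfected with a pcDNA3 vector for α1ACT, a transcription factor encoded by the calcium channel gene CACNA1A, with 11 glutamine repeats and a 3xFlag tag at its C-terminus. The reference line carried the empty pcDNA3 vector, with 2 libraries at 6 h and 3 at 10 d. Both lines were selected with G418, and the number of stable clones behind each is not given in the labels. The labels name no treatment between the time points. Nor do they say whether replicates were separate cultures, so a p-value here speaks only of the spread among the libraries, which may be technical. In bulk RNA, fewer cells of a type and less RNA per cell cannot be told apart.

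MicroRNAs are cut from hairpin precursors by Drosha and Dicer, and 1 strand, the 5p or the 3p arm, is loaded into an Argonaute protein. The loaded strand finds target mRNAs mainly through its seed, bases 2 to 8, and lowers their translation or stability. Sets of miRNAs that share a seed are treated as families, because their targets overlap. Several hairpins are often cut from 1 long transcript, and arms of 1 hairpin can still reach different levels, because each strand is loaded and degraded on its own.

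Between 6 h and 10 d the α1ACT line had large falls in a small group of miRNAs and smaller rises in others. Among miRNAs with a mean of 10 CPM or more, the steepest falls were those of miR-501-3p and of the 5p arms of miR-100, miR-99b, miR-125a and miR-125b, which belong to 2 seed families linked to cell differentiation. Also lower at 10 d was miR-92a-3p of the growth-promoting miR-17-92 family of clusters. So were miR-484, miR-877 and miR-320-3p, a short list of miRNAs with noncanonical precursors. Higher at 10 d were miR-338-3p, miR-497-5p, both arms of the hypoxia-linked miR-210, let-7g-5p and the abundant miR-22-3p. Of these, the calls of miR-210-5p and miR-22-3p held in 13 and 9 of 19 alternative settings. The sequences that carry these results are shown first, 5′ to 3′ with the seed in capitals, from RefSeq records listed with build GRCr8. The first set holds the families that fell, with their seed partners.

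miR-100-5p: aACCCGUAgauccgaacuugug
miR-99b-5p: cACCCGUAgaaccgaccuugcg
miR-125a-5p: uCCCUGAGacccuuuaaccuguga
miR-125b-5p: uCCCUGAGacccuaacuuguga
miR-351-5p: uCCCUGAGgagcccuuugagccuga

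The next set holds 2 pairs with 1 seed each, miR-501-3p with miR-500-3p and miR-92a-3p with miR-25-3p. In each pair only the first was called, and the difference within a pair was not tested.

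miR-501-3p: aAUGCACCcgggcaaggauuugg
miR-500-3p: aAUGCACCugggcaaggguuca
miR-92a-3p: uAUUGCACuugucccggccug
miR-25-3p: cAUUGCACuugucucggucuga

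The last set holds miRNAs that were higher at 10 d, and let-7e-5p, whose hairpin lies between those of miR-99b and miR-125a.

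miR-338-3p: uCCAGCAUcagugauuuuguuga
miR-497-5p: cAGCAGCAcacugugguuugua
miR-210-3p: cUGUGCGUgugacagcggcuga
let-7g-5p: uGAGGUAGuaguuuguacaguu
let-7e-5p: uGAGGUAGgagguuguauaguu
miR-22-3p: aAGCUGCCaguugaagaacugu

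The α1ACT libraries held 2300181, 1990991 and 1850263 miRNA counts at 6 h and 5070120, 3085234 and 2056181 at 10 d, in the order of their replicate numbers. Levels are given as CPM, counts scaled to library size with TMM factors, and changes as log2 fold changes of 10 d against 6 h. The table lists 413 mature miRNA entries, and 269 passed the filter on low counts. With edgeR's quasi-likelihood test and p-values adjusted by Benjamini and Hochberg, 73 of the 269 (27.1%) had an adjusted p under 0.05 and are named as called, 30 of them higher (11.2%) and 43 lower (16%) at 10 d. In 113 of the 269 (42%) the 3 libraries of 6 h and the 3 of 10 d did not overlap, 59 higher (21.9%) and 54 lower (20.1%) at 10 d, and 69 of the 73 called miRNAs were among them. The falls were the larger changes. The median absolute log2 fold change was 0.92 over the lower calls and 0.39 over the higher calls, against 0.30 over all tested miRNAs, and all 15 calls with a value of 1 or more were lower at 10 d. Under upper-quartile factors the balance shifted to 16 higher and 48 lower calls. α1ACT 6 h replicate 2 stood apart from the other libraries of its group for several miRNAs that fell, and values without it are given beside those.

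**Figure D1:**
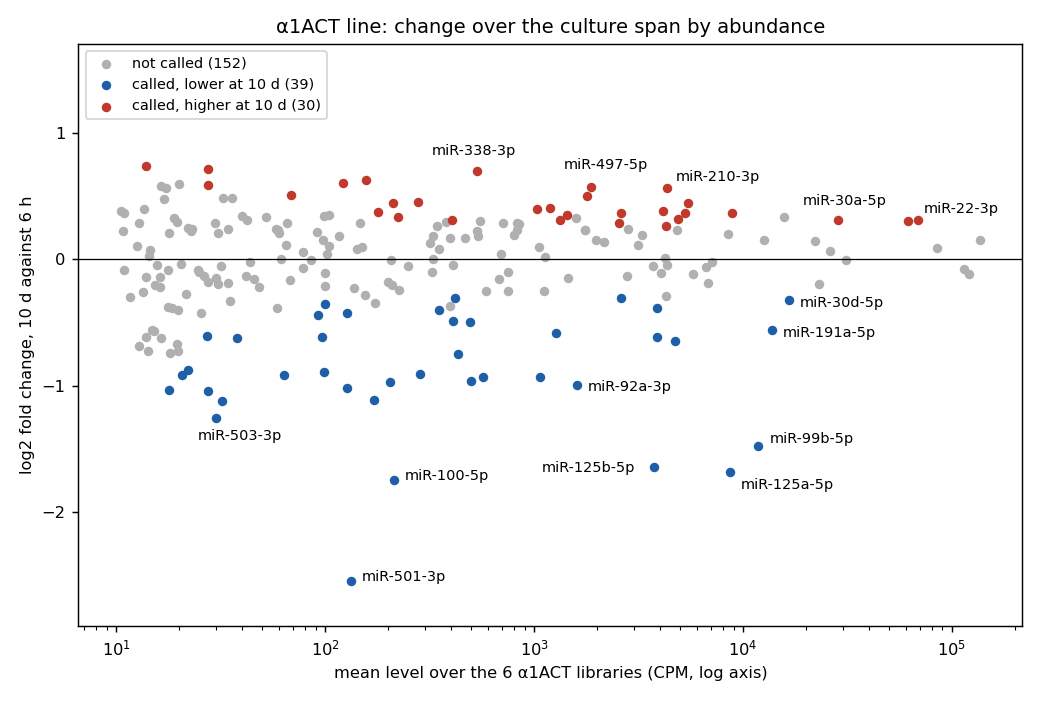
Change over the culture span against level for the 221 tested miRNAs with a mean of 10 CPM or more over the 6 α1ACT libraries (without let-7a-1-3p, and without let-7c-2-3p). The horizontal axis is the mean level in CPM on a log scale, the vertical axis the log2 fold change of 10 d against 6 h, and colour marks the calls. The falls reach -2.54 at miR-501-3p, while no call among those higher at 10 d exceeds 0.74.

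The seed family of miR-100 and miR-99b and that of miR-125a and miR-125b fell together. Both are conserved in animals and are known for their part in differentiation. For miR-125a-5p the 6 h libraries read 16906, 7364 and 15344 CPM and the 10 d libraries 4330, 4156 and 3827 CPM. The 6 h libraries were all above those of 10 d, and 6 h replicate 2 was far below its group. The log2 fold change was -1.69 (SE 0.209, edgeR adjusted p = 2.38e-06), and without 6 h replicate 2 it was -1.97. Its close relative miR-125b-5p went from 6947, 3316 and 6726 CPM to 1879, 1920 and 1651 CPM. Here too the groups did not overlap and 6 h replicate 2 was the lowest of its group. The log2 fold change was -1.64 (SE 0.203), or -1.91 without that library.

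In the other family miR-99b-5p stood at 20178, 12851 and 19283 CPM at 6 h and at 6662, 6529 and 5575 CPM at 10 d. The scarcer miR-100-5p stood at 349, 263 and 371 CPM at 6 h and at 99.6, 104 and 88.2 CPM at 10 d. For each the groups did not overlap, and the 10 d libraries lay close together. Their log2 fold changes were -1.48 (SE 0.209) and -1.75 (SE 0.217), with edgeR adjusted p of 1.28e-05 and 1.95e-06. Without 6 h replicate 2 the values were -1.66 and -1.88. As a share of all counts, these 4 arms together made up 4.58%, 2.53% and 4.12% at 6 h and 1.34%, 1.27% and 1.12% at 10 d.

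miR-351-5p has the seed of miR-125 and is encoded elsewhere, in the X-linked cluster of miR-322 and miR-503. It fell as well, by a smaller step, from 5164, 4214 and 4679 CPM to 3290, 2756 and 3127 CPM (log2 fold change -0.62, SE 0.106, edgeR adjusted p = 6.64e-05). All 3 tested miRNAs with the seed CCCUGAG and both with the seed ACCCGUA were thus lower at 10 d, against 16% of all tested. The 3p arms of these hairpins changed less: miR-99b-3p was called at -0.36, while miR-125a-3p (-0.17), miR-125b-1-3p (-0.25) and miR-125b-2-3p (0.38) were not. Over the lists used here, all 3 tested members of the miR-99 and miR-100 family fell (median log2 fold change -1.48; the call of miR-99b-3p held in 8 of 19 alternative settings), and 2 of 5 tested members of the miR-125 family did (median -0.25), where the median of all tested miRNAs was -0.01.

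The hairpins of miR-99b, let-7e and miR-125a lie within 10 kb of each other inside the gene Spaca6, strand not considered, and are commonly described as cut from 1 transcript. The middle one did not follow its neighbours. let-7e-5p read 14164, 12060 and 15358 CPM at 6 h and 15868, 17874 and 18674 CPM at 10 d. All 10 d libraries were above those of 6 h, with a log2 fold change of 0.33 that missed the threshold (edgeR adjusted p = 0.169). At the 5p arms the cluster therefore read -1.48, 0.33 and -1.69 in its order along the genome, and at the 3p arms -0.36, -0.56 and -0.17, of which only that of miR-99b-3p was called. The hairpin of miR-100 likewise lies beside a let-7a hairpin, and let-7a-5p, which is also cut from another hairpin, read 0.15 and was not called.

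Among miRNAs with a mean of 10 CPM or more, miR-501-3p had the largest fall. Its hairpin lies within Clcn5, a chloride channel gene, among others of a cluster. It stood at 273, 170 and 236 CPM at 6 h and at 44.6, 35.5 and 35.6 CPM at 10 d, so the lowest 6 h library was far above the highest of 10 d. The log2 fold change was -2.54 (SE 0.307, edgeR adjusted p = 1.95e-06), and it ranged from -2.71 to -2.39 over 19 alternative settings. Its seed partner in the same gene, miR-500-3p, stood at 54.8, 53.8 and 59.1 CPM at 6 h and at 66.1, 52.7 and 75.2 CPM at 10 d. Those groups overlapped and miR-500-3p was not called (0.21). Of 7 tested miRNAs of the Clcn5 cluster 2 fell, the other being miR-362-5p (-1.04), and none rose. That share is near the 27.1% called over all miRNAs. The cluster's most abundant member, miR-532-5p, was at 0.29 and miR-188-5p at -0.18, neither of them called, and the median of the 7 was -0.18.

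The miR-17-92 cluster and its paralogs promote proliferation in many cell types, and 1 member rose and 3 fell among 17 tested (median -0.22), a share near the 27.1% called over all miRNAs. The clearest was miR-92a-3p, which went from 2285, 1967 and 2178 CPM to 1140, 1066 and 1017 CPM. Libraries within each time agreed closely, and the groups were well apart (log2 fold change -1.0, SE 0.120, edgeR adjusted p = 4.16e-07). Besides its miR-17-92 hairpin, miR-92a-3p is cut from a hairpin in another cluster, and the counts do not separate them. Its partners in miR-17-92 were not called: miR-17-5p was at 0.11, miR-20a-5p at -0.14, miR-19b-3p at -0.28 and miR-18a-5p at -0.14. None of its tested seed partners was called either. The scarce miR-92b-3p was at -0.88 and the scarce miR-32-5p at 0.89. miR-25-3p, from a paralogous cluster, had 6241, 7786 and 6318 CPM at 6 h and 6513, 6882 and 6082 CPM at 10 d (-0.06). In that paralogous cluster, within the replication gene Mcm7, the arms of miR-93 went apart. miR-93-5p rose from 4402, 4700 and 4773 CPM to 6001, 5795 and 6058 CPM (0.36), and the scarce miR-93-3p fell from 31.6, 21.2 and 32.8 CPM to 14.6, 17.2 and 14.9 CPM (-0.87). It was the only 1 of 76 hairpins with both arms tested in which both were called in opposite directions. The calls of miR-93-5p and miR-93-3p held in 14 and 15 of 19 alternative settings.

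Some miRNAs skip a step of the canonical path: the precursors of miR-320 and miR-484 are known to bypass Drosha, and that of miR-877 is a short intron. All 3 tested entries of this list fell, with a median of -0.92, where 16% of all tested miRNAs fell. The list holds these 3 alone. Other miRNAs with noncanonical precursors were not collected, so it does not stand for the class. miR-484 stood at 160, 179 and 170 CPM at 6 h and at 82.0, 93.7 and 75.2 CPM at 10 d, groups that did not overlap (-1.02, SE 0.147, edgeR adjusted p = 4.40e-06). miR-877 went from 104, 47.7 and 98.5 CPM to 54.8, 36.4 and 40.5 CPM, where 6 h replicate 2 lay inside the range of 10 d (-0.92, or -1.20 without that library). For miR-320-3p the change was -0.49, and its call held in 12 of 19 alternative settings.

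Several other miRNAs fell by log2 values near or past 1. miR-149-5p, from an intron of the glypican gene Gpc1, went from 255, 214 and 230 CPM to 108, 98.9 and 116 CPM (-1.11, edgeR adjusted p = 7.80e-07). miR-212-5p went from 40.5, 37.8 and 53.1 CPM to 16.3, 23.4 and 20.7 CPM (-1.12), while its partner arm miR-212-3p, the arm for which this CREB-responsive hairpin is known, was not called (0.24). miR-503-3p, from the cluster that also holds miR-351, went from 52.3, 24.5 and 49.8 CPM to 20.1, 15.3 and 17.3 CPM (-1.25, or -1.53 without 6 h replicate 2). In none of these 3 did the groups overlap. miR-345-3p was at -1.04. Among the abundant miRNAs, miR-191a-5p fell from 18244, 14372 and 16494 CPM to 11566, 12080 and 9702 CPM (-0.56) and miR-30d-5p from 18309, 19173 and 17755 CPM to 14827, 14121 and 15161 CPM (-0.32).

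The miRNAs that were higher at 10 d moved by less. miR-338-3p, from an intron of the kinase gene Aatk and known from oligodendrocytes and neurons, stood at 439, 370 and 406 CPM at 6 h and at 601, 751 and 616 CPM at 10 d. All 10 d libraries were above those of 6 h (0.70, SE 0.134, edgeR adjusted p = 0.00027). miR-598-3p was tight within each time, with 126, 122 and 123 CPM at 6 h and 188, 197 and 188 CPM at 10 d (0.63, SE 0.136, edgeR adjusted p = 0.00104). Scarcer miRNAs with rises of this size were miR-344a-3p (0.71), miR-147 (0.58) and miR-1843b-5p (0.74), the last with a call that held in 8 of 19 alternative settings.

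miR-210 is the best known miRNA induced by low oxygen, and both of its arms rose. miR-210-3p went from 2995, 3923 and 3508 CPM to 5241, 4812 and 5359 CPM, with no overlap (0.56, SE 0.131, edgeR adjusted p = 0.00218). For miR-210-5p the value was 0.60, with a call that held in 13 of 19 alternative settings. Oxygen and cell density are not given in the labels. miR-497-5p, which shares its seed with the cell-cycle inhibitors miR-15 and miR-16, rose from 1477, 1571 and 1467 CPM to 2038, 2255 and 2410 CPM (0.57, SE 0.112, edgeR adjusted p = 0.000327). Of the 5 tested miRNAs with this seed, miR-322-5p rose too (0.41), while miR-195-5p (0.23), the abundant miR-16-5p (0.14) and miR-15b-5p (-0.37) were not called.

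The let-7 family, which restrains growth and marks differentiated cells, did not move as a block. Of 9 tested miRNAs with the let-7 seed 2 rose and 1 fell, where 11.2% of all tested miRNAs rose and 16% fell. let-7g-5p went from 4533, 4430 and 4964 CPM to 6138, 6658 and 6132 CPM (0.44), and let-7i-5p was at 0.31. let-7b-5p was called lower at -0.64, with 5337, 4973 and 6945 CPM at 6 h and 3423, 2841 and 4781 CPM at 10 d, and its call held in 14 of 19 alternative settings. Mature let-7 sequences differ by few bases, so counts could be split between members. Over the whole let-7 list 2 of 19 tested entries rose and 2 fell, the second being let-7d-3p (-0.93). The 3p entries let-7c-2-3p and let-7a-1-3p cannot be read singly, since in each library only 1 of them had any counts. Their summed level was 54.8, 58.5 and 57.5 CPM at 6 h and 55.5, 64.7 and 74.2 CPM at 10 d.

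**Figure D2:**
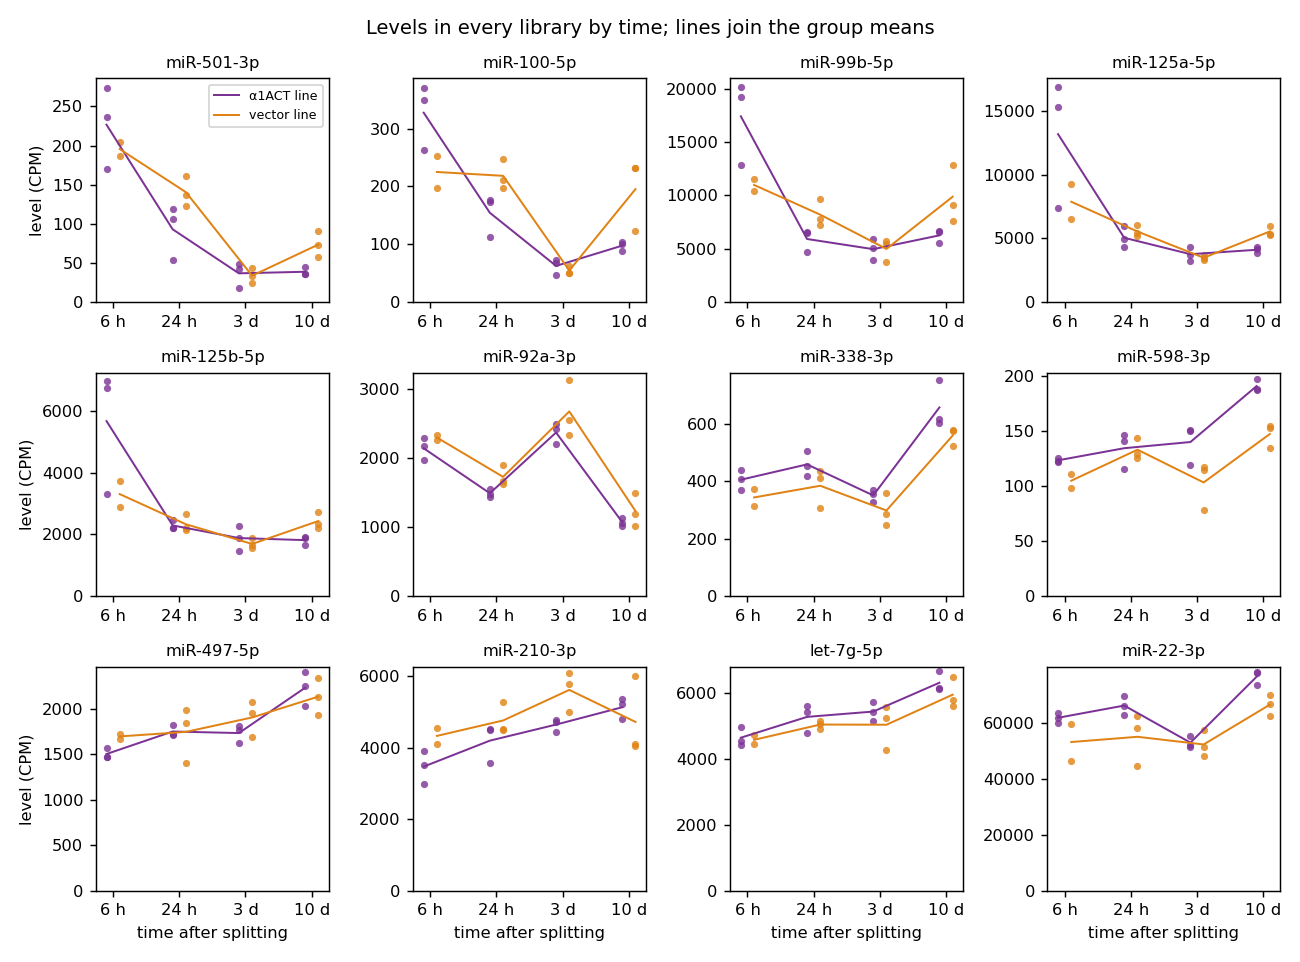
Level of 12 miRNAs in each library of the α1ACT line (purple) and the vector line (orange, names as in the main table) at 6 h, 24 h, 3 d and 10 d, in CPM on linear axes from 0. Each point is 1 library and lines join the group means. In the α1ACT line 6 h replicate 2 lies below the other 6 h libraries of miR-125a-5p, miR-125b-5p and miR-99b-5p.

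Most of these miRNAs had already moved by 24 h. Of the 43 lower calls 39 had a mean at 24 h below that at 6 h, and of the 30 higher calls 29 had a mean above it. The course was seldom steady: 6 of the 43 and 5 of the 30 moved in 1 direction at every step. The median log2 change against 6 h was -0.36, -0.16 and -0.91 for the lower calls (24 h, 3 d, 10 d in turn), and 0.18, 0.03 and 0.39 for the higher ones. All of these are compared with the same 6 h libraries, and the members were chosen on 10 d against 6 h, so they describe the course and are not a test of it. miR-92a-3p was nearer its 6 h level at 3 d, with 2203, 2421 and 2491 CPM, than at 24 h, with 1480, 1559 and 1438 CPM, while miR-125b-5p had dropped to 2463, 2197 and 2215 CPM by 24 h, and its mean was lower again at each later time. Unlike it, miR-100-5p, miR-99b-5p and miR-125a-5p had their lowest means at 3 d, at 19.1%, 28.4% and 28.5% of the 6 h mean. At 10 d these 3 stood at 29.7%, 35.9% and 31.1%. The lowest mean came at 3 d for 10 of the 43 lower calls and at 10 d for 30.

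**Figure D3:**
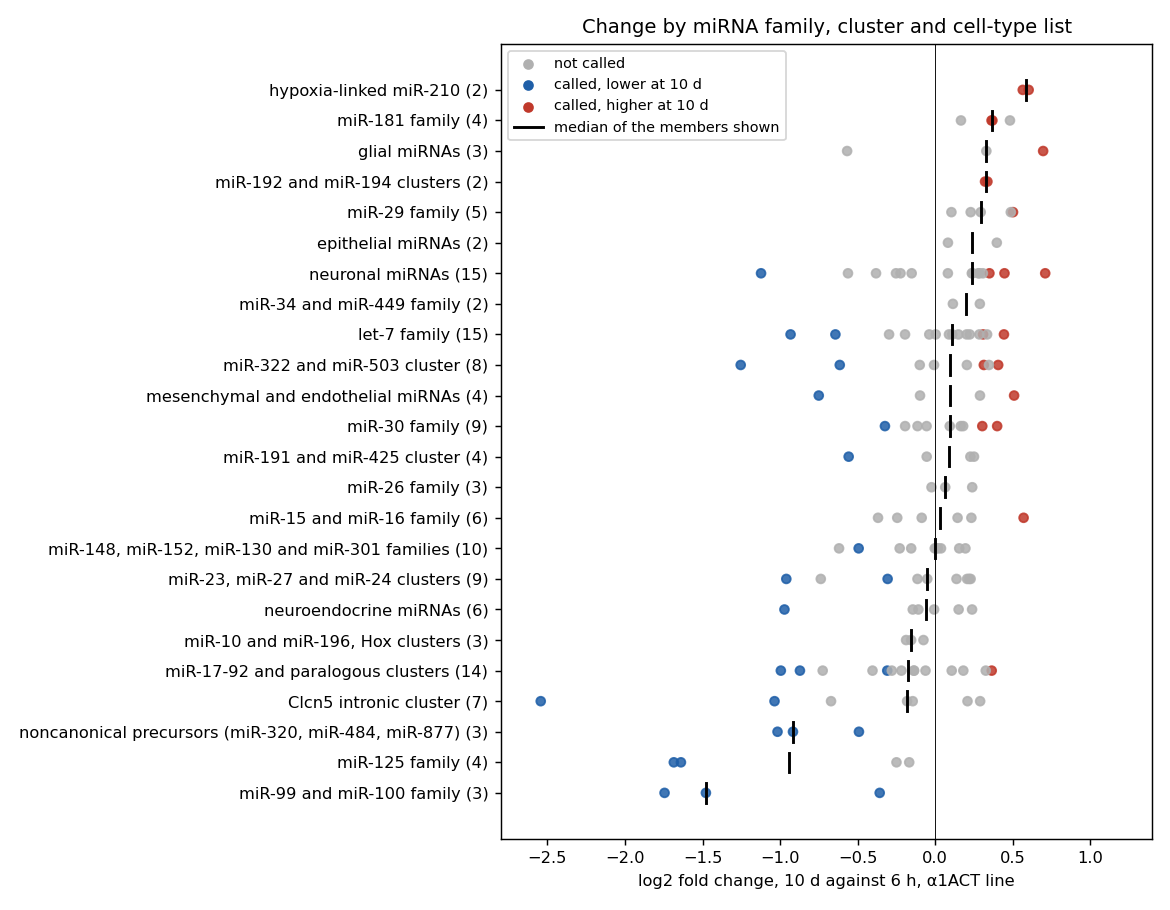
Log2 fold change of 10 d against 6 h in the α1ACT line for the members of 24 families, clusters and cell-type lists with a mean of 10 CPM or more, with the number shown in brackets. Points are miRNAs, colours mark the calls and bars the median of the members shown, which can differ from medians over all tested members. The lists of miR-99 and miR-100, miR-125 and the noncanonical precursors lie lowest, and that of miR-210 highest.

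Endocrine and neural miRNAs were checked as markers of the line. The endocrine miR-375-3p was the most abundant miRNA, with 124756, 124925 and 135411 CPM at 6 h and 146275, 138662 and 142504 CPM at 10 d, and was not called (0.15, edgeR adjusted p = 0.226). Summed over the 8 tested neuroendocrine entries, levels ran from 159841 to 171903 CPM at 6 h and from 173901 to 181966 CPM at 10 d. Among them miR-182 (-0.01) and miR-183-5p (-0.11) were not called. Their cluster partner miR-96-5p fell from 318, 210 and 286 CPM to 110, 157 and 149 CPM (-0.97), and so did the rare miR-375-5p.

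Of 19 tested neuronal entries 3 rose and 1 fell, a share not above the 27.1% called over all miRNAs, with a median of 0.08. miR-138-5p, a synaptic regulator, rose from 1293, 1217 and 1293 CPM to 1628, 1585 and 1632 CPM (0.35). Its call held in 11 of 19 alternative settings. miR-153-3p, from an intron of the secretory granule gene Ptprn2, rose from 188, 172 and 174 CPM to 233, 234 and 262 CPM (0.45), and miR-344a-3p was the last of the 3. Not called were miR-128-3p (-0.15), miR-218a-5p (0.28), miR-137-3p (0.28), miR-9a-5p (0.31) and miR-132-3p (0.08). The neuron-specific miR-124 had 2 counts over the 3 libraries of 6 h and 0 over those of 10 d.

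Other lists held few calls. Their counts stand beside the 11.2% of all tested miRNAs that rose and the 16% that fell. In the miR-29 family, known for its collagen targets, all 6 tested members had a positive value (median 0.37) and 1 rose, miR-29c-3p (0.50). In the miR-181 family 2 of 5 rose, miR-181c-5p (0.37) and miR-181d-5p (0.36), and both tested members of the p53-linked miR-192 and miR-194 clusters did (0.32 and 0.34), of which the call of miR-194-5p held in 7 of 19 alternative settings. In the miR-30 family miR-30a-5p (0.30) and miR-30a-3p (0.40) rose and miR-30d-5p fell, out of 9. Of 10 entries of the miR-23, miR-27 and miR-24 clusters 3 fell, miR-27b-5p (-0.96), miR-23b-3p (-0.31) and miR-23b-5p, while the very abundant miR-27b-3p was at -0.11. Of 10 entries of the families of miR-130, miR-301, miR-148 and miR-152, 1 fell, miR-130b-5p (-0.49), and of 4 in the miR-191 and miR-425 cluster 1 fell, miR-191a-5p. No member was called among 5 of the miR-10 and miR-196 group, 3 of the miR-26 family and 2 of the miR-34 family, with miR-10b-5p at -0.08, miR-26a-5p at 0.06 and miR-34a-5p at 0.29.

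For other cell types, the 4 tested mesenchymal and endothelial entries summed to between 551 and 784 CPM at 6 h and between 398 and 477 CPM at 10 d. In this list miR-143-3p fell (-0.75) and miR-126a-5p, from an intron of the endothelial gene Egfl7, rose (0.51). The 4 tested glial entries summed to between 444 and 509 CPM at 6 h and between 680 and 841 CPM at 10 d, most of it miR-338-3p. The 4 tested epithelial entries summed to between 339 and 401 CPM and between 351 and 408 CPM. The 1 tested blood-cell entry, miR-142-5p (0.70, edgeR adjusted p = 0.454), summed to at most 8.24 CPM in any of the 6 libraries, and the muscle list had 0 counts at 6 h and 2 at 10 d. The part of such cells in the calls was not tested.

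Some calls rested on few counts. Outside the naming rule and chosen after their values were seen, 4 calls had a mean under 10 CPM. miR-23b-5p had 34, 24 and 39 counts at 6 h and 0, 3 and 0 at 10 d, a ratio of 53.8 per count sequenced, with an exact 95% interval of 17.9 to 265 that covers counting error only. For miR-375-5p, miR-200b-3p and miR-330-3p the ratios of 6 h to 10 d were 5.70 (interval 2.38 to 15.7), 3.49 (2.0 to 6.28) and 2.48 (1.74 to 3.55), from 24 against 7, 42 against 20 and 82 against 55 counts.

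Base composition was set beside the calls. A mature sequence was found for 248 of the 269 tested miRNAs, among them 35 of the 43 lower and 28 of the 30 higher calls. The median GC content was 56.5% over the lower calls, 45.5% over the higher calls and 47.8% over all 248. Sequences with 50% GC or more made up 77.1% of the lower calls, 25% of the higher calls and 44.8% of all. From the 68 miRNAs of 35% to 45% GC, 2 fell and 11 rose, and their median log2 fold change was 0.21. From the 60 of 55% GC or more, 19 fell and 3 rose, with a median of -0.37. Across the 248 miRNAs, Spearman's rho between GC content and log2 fold change was -0.38 in the α1ACT line. For length it was -0.02 in that line. In the vector line rho for GC content was -0.39 with the library names of the main table. The names of vector 6 h replicate 2 and vector 10 d replicate 2 are in doubt. The relation was not tested with these names exchanged, so the vector value is no independent check. The 248 miRNAs share their libraries and are not independent. Weighted by counts, the mean GC content of the α1ACT libraries was 45.9% in each of the 3 at 6 h and 45.6%, 45.5% and 45.4% at 10 d. With each miRNA weighted equally, the slope of log2 level on GC content was -0.059, -0.062 and -0.054 at 6 h. At 10 d this slope was -0.073, -0.082 and -0.079, so the libraries of the 2 times did not overlap in either measure. Between these ends the slope was -0.068, -0.072 and -0.066 at 24 h and -0.054, -0.059 and -0.057 at 3 d. The weighted GC content was 46.3%, 45.7% and 45.8% at 3 d. Neither measure thus moved steadily with time. The part of base composition in single calls was not tested. Among the steepest falls, miR-100-5p, miR-125a-5p and miR-125b-5p have 50% GC each, miR-501-3p has 56.5% and miR-99b-5p has 63.6%.

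**Figure D4:**
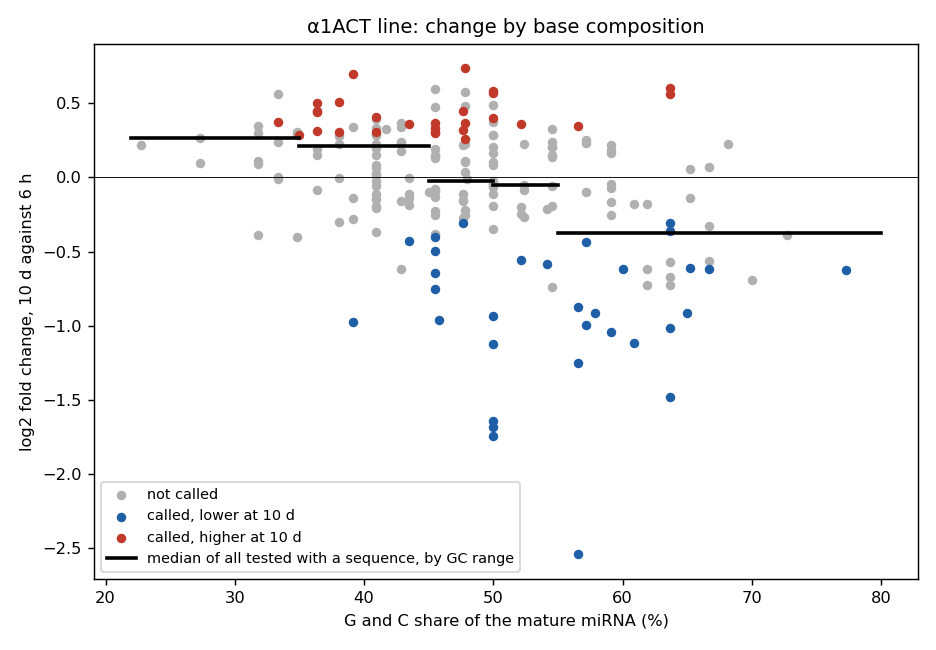
Log2 fold change of 10 d against 6 h in the α1ACT line against the GC content of the mature sequence, for the 205 miRNAs with a sequence and a mean of 10 CPM or more. Colours mark the calls, and the bars are medians of all tested miRNAs with a sequence in each GC range, which go from 0.26 under 35% to -0.37 at 55% or more.

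Among hairpins with both arms tested, most of those with a call had it on 1 arm only. Over all tested miRNAs 27.1% were called, and at such a share pairs of unrelated miRNAs would also seldom both be called. The counts of calls below are therefore no result about arms. Whether the arms differed was not tested. Both arms were tested for 76 hairpins, and their log2 fold changes, called or not, had the same sign in 41 (53.9%). Both arms were called in 6, of which miR-210 and miR-30a rose, miR-423, miR-99b and miR-23b fell, and miR-93 was split. In 30 only 1 arm was called, and in 14 of these the other arm had the opposite sign. The called arm was the less abundant of the pair in 11 of the 30. Hairpins within 10 kb of each other formed 28 clusters, 20 of them with at least 1 call. With 27.1% of all tested miRNAs called, many groups of several members would hold a call, so the 20 are no result about clusters. In 1 cluster, that of miR-192 and miR-194, every tested member was called, miR-194-5p with the unstable call given above.

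The vector line was measured over the same span as the background of culture time. Names of its libraries are in doubt: in the 2 deposited count tables, 21 of 23 libraries matched their own name, but vector 6 h replicate 2 and vector 10 d replicate 2 each matched the other. With the names of the main table, 32 of the 269 miRNAs (11.9%) were called in the vector line, 14 higher (5.2%) and 18 lower (6.69%). With the pair exchanged edgeR called 0, with 4 at an unadjusted p under 0.05, and with both left out it called 11. In the other table the counts were 0 as named, with 8 at an unadjusted p under 0.05, and 43 when exchanged. Without vector 6 h replicate 2 alone the count was 16, and under upper-quartile factors it was 60.

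How many changes of the α1ACT line had the same sign in the vector line depended on these names. As named, of its 73 calls 70 (95.9%) did, against 206 of all 269 (76.6%), and 25 were also called there, which is 34.2% of the α1ACT calls and 78.1% of the vector calls. All 30 higher calls and 40 of the 43 lower ones were among the 70. With the doubtful pair left out 71 of the 73 had the same sign (97.3%, against 71.7% of all tested). With the pair exchanged 54 did (74.0%, against 60.6% of all tested). In the other table as named 50 of the 73 (68.5%, against 58.8%) had the same sign, and 71 (97.3%, against 76.8%) with the pair exchanged there. The vector line's median over the lower calls was -0.48 as named, -0.12 with the pair exchanged and -0.16 in the other table as named, and over the higher calls it was 0.36, 0.10 and 0.01. Under the names of the main table, miR-92a-3p in the vector line went from 2334 and 2265 CPM to 1022, 1492 and 1194 CPM (-0.90), miR-484 was at -1.06 and miR-338-3p at 0.70. With the pair exchanged these 3 values were -0.36, 0.01 and -0.01, and with both left out they were -1.20, -1.02 and 0.43. miR-501-3p went from 205 and 186 CPM to 72.5, 57.5 and 90.1 CPM (-1.41, or -0.18 with the pair exchanged and -1.46 with both left out). As named, the test of the difference between the lines gave -1.13 for miR-501-3p (SE 0.440, edgeR adjusted p = 0.462).

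**Figure D5:**
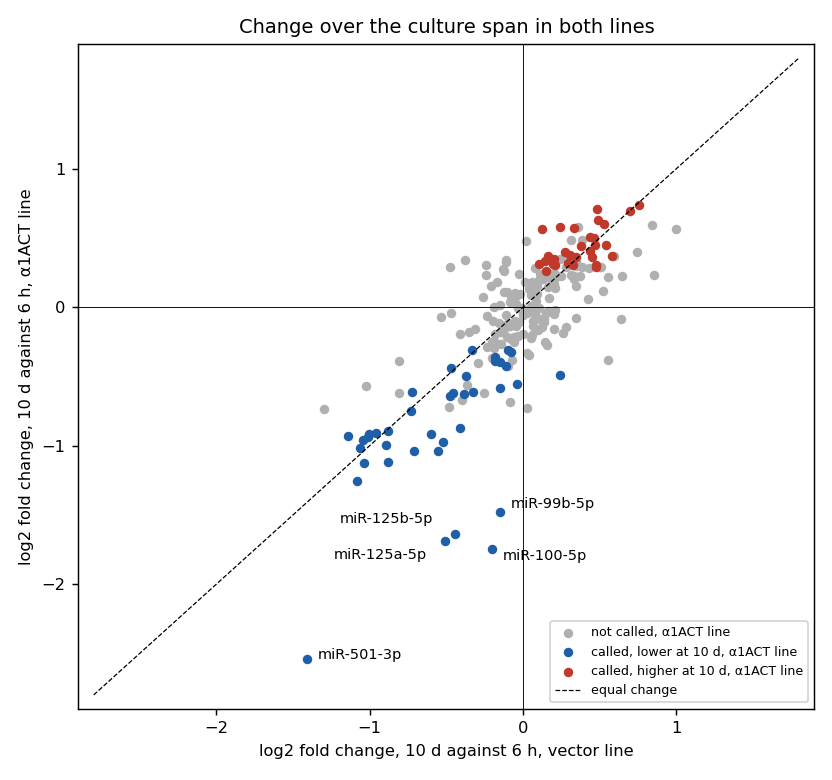
Log2 fold change of 10 d against 6 h in the α1ACT line (vertical) against that in the vector line (horizontal) for the 221 miRNAs with a mean of 10 CPM or more, with the library names of the main table. Colours mark the calls of the α1ACT line and the dashed line equal change. Most calls lie in the quadrants of equal sign, while miR-100-5p, miR-125b-5p, miR-99b-5p and miR-125a-5p lie far below the dashed line.

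The smallest p-values for a difference between the lines belonged to the families of miR-100 and miR-125. In the vector line miR-100-5p read 252 and 198 CPM at 6 h and 231, 122 and 232 CPM at 10 d, groups that overlapped (-0.20, SE 0.234). There miR-99b-5p read 11551 and 10433 CPM and then 12862, 7647 and 9144 CPM, which also overlapped (-0.15). With the doubtful pair exchanged these values turned to 0.24 and 0.17, and with both left out they were -0.25 and -0.20. miR-125a-5p (-0.51) and miR-125b-5p (-0.44) were not called in the vector line either. Between these ends, at 3 d, miR-100-5p read 62.8, 50.6 and 49.8 CPM in the vector line. In the α1ACT line it read 46.7, 67.6 and 72.9 CPM at 3 d. The vector mean of miR-125a-5p was 3476 CPM at 3 d and 5547 CPM at 10 d. The difference in change, α1ACT line minus vector line, passed the threshold for 2 of 269 miRNAs (0.743%), with 15 at an unadjusted p under 0.05. It was -1.54 for miR-100-5p (SE 0.321, edgeR adjusted p = 0.0205) and -1.33 for miR-99b-5p (SE 0.311, adjusted p = 0.0471). For miR-125b-5p, miR-125a-5p and miR-191a-5p it was -1.20, -1.18 and -0.52, with edgeR adjusted p of 0.0605, 0.0699 and 0.178.

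These differences had 1 sign in all 24 alternative settings, but their calls did not last. That of miR-100-5p held in 16 of the 24, with values from -1.99 to -1.32, and that of miR-99b-5p in 7. With the vector pair exchanged 4 miRNAs were called, with both left out 1, and 6 in the other table. Leaving out any 1 of the 11 libraries of this comparison moved the count of 2: to 0 without α1ACT 6 h replicate 3, α1ACT 10 d replicate 3, vector 6 h replicate 2, vector 10 d replicate 1 or vector 10 d replicate 3, to 6 without α1ACT 6 h replicate 2, and to 1 without each of the other 5. For the counts of 0, edgeR's unadjusted p was under 0.05 for 9 to 19 miRNAs. With all libraries DESeq2 called 5 and limma-voom 2.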

How the data were processed

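RNA enriched for miRNAs was sequenced with an Illumina small RNA kit, per the labels' protocols. The deposited values are raw read counts for each mature miRNA, not normalized by the authors. The edgeR package is named in the submitters' processing notes. The sources used here do not name the aligner, the miRBase release or the genome build. Columns named WT were matched to the α1ACT titles and columns named control to the vector titles, on the assumption that WT stands for the construct with the repeat of normal length. A further 12 columns per file matched no sample and were not used. An entry without a name held 0 counts (0%).

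The members and lists were chosen with earlier results of these data known. Counts of the table made with sRNAbench, by its name (413 entries), went into edgeR 4.0.16 (R 4.3.3): filterByExpr (269 kept), TMM factors, 1 mean for each of 8 groups over all 23 libraries, robust quasi-likelihood dispersions, and Benjamini-Hochberg adjustment over the 269. Contrasts were 10 d against 6 h in each line and the difference between them. A standard error is the log2 fold change divided by the root of its F value. Totals ran from 448557 to 5070120 counts, reads carry no molecular identifiers, and the common biological coefficient of variation was 16.1%. No duplicate library was found.

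Named were the 12 largest calls in each direction with a mean of 10 CPM or more, the 3 most abundant in each direction, the 5 most abundant tested, the 5 smallest p of the difference, and of each of 29 lists no more than 4 by p and 2 abundant ones not called. Partner arms, seed partners and cluster neighbours were added. In 4 lists (miR-221 and miR-222, muscle, liver, Dlk1-Dio3 cluster) no member was tested. Sequences, hairpins and host genes came from RefSeq tables of GRCr8, used for names and neighbourhood alone. miR-598-3p, miR-30d-5p, miR-362-5p, miR-344a-3p and miR-320-3p are named only.

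Alternatives were the table made with Chimira, by its name (627 entries, 305 tested), 3 scalings, 2 filters, DESeq2 1.42.0, limma-voom (limma 3.58.1), a replicate block, the compared groups alone, exchanging or leaving out the doubtful vector pair, and leaving out each library. The exchange within the Chimira table was chosen after seeing the data. The steps were tested on simulated data.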

Additional observations from a re-analysis of the deposited data

Results flagged for a closer look

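The change from 6 h to 10 d differed between the lines by a test of the difference itself for 2 miRNAs. For miR-100-5p the α1ACT line minus the vector line was -1.54 on the log2 scale (edgeR adjusted p = 0.0205, and 0.000257 to 0.405 over 24 alternative settings). For miR-99b-5p it was -1.33 (edgeR adjusted p = 0.0471, and 0.00135 to 0.874 over the same settings). In the α1ACT line all 3 libraries of 10 d were below all 3 of 6 h for both, and in the vector line the groups overlapped. This compares the ends alone. At 3 d the mean of miR-100-5p was 54.4 CPM in the vector line and 62.4 CPM in the α1ACT line. The part of the doubtful vector names was measured: with the pair exchanged the differences were -1.99 and -1.65.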

How the results depend on the processing

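In the α1ACT line the count of 73 calls stayed within 1.5 times under all 19 alternatives, from 51 with the vector pair exchanged to 87 in the Chimira table with that exchange, and from 50 to 79 when single libraries were left out. The Chimira table as named gave 71, of which 60 were among the 73. All 73 kept their sign in every alternative that tested them, and 31 kept their call, 25 lower and 6 higher (miR-181d-5p, let-7g-5p, miR-210-3p, miR-497-5p, miR-598-3p and miR-338-3p). Fewer than 10 of 19 alternatives kept the calls of miR-103-3p (5), miR-106b-3p (7), miR-194-5p (7), miR-99b-3p (8), miR-101b-3p (8), miR-1843b-5p (8), miR-22-3p (9) and miR-421-3p (9). In the vector line the count of 32 became 0 in the Chimira table, 60 under upper-quartile factors, 0 with the pair exchanged, 11 with the pair left out, and 16 to 31 without single libraries. The count of 2 for the difference between the lines became 6 in the Chimira table, 1 under RLE factors, 5 under upper-quartile factors, 1 under library totals, 0 without a low-count filter, 1 with a filter on mean CPM, 5 by DESeq2, 4 with the pair exchanged, 1 with the pair left out, 0 with the compared groups alone, and 0 to 6 without single libraries. Where that count was 0, edgeR's unadjusted p was under 0.05 for 9 to 19 miRNAs. The cause was not tested.

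The titles share replicate numbers. Deviations of same-numbered α1ACT libraries correlated at 0.12, 0.08 and 0.03 over 222 miRNAs, and those of other α1ACT pairs at -0.13 to 0.07. In the vector line, with 2 libraries at 6 h and names in doubt, same-numbered libraries correlated at -0.77 and -0.54. With so few libraries these values cannot tell whether same-numbered libraries were paired. With a replicate block the counts were 77 in the α1ACT line, 41 in the vector line and 0 for the difference. Depth limits the scarce entries: for the 4 calls under 10 CPM the fitted value depends on the prior count, and counting intervals were given instead.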
